A study of Mus musculus with 4 samples.

Results

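The genes described here are 7 genes of cholesterol synthesis and its control: Srebf2, Insig1, Hmgcs1, Idi1, Sqle, Cyp51 and Dhcr7. The rule names them by symbol and uses no measured value, but the set was proposed with earlier results of these data known. Each was found once among the 29300 genes of the count table, and all 7 passed the filter on low counts, which left 17144 genes. None of the 7 encodes a lipoprotein receptor, so sterol uptake is described from a separate list of 11 genes.

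RNA-seq was performed on poly(A)-selected RNA of the hippocampus of wild-type C57BL/6 mice, all male and 7 to 8 months old, at day 1 after operation. The 2 control mice (sham) received isoflurane anesthesia and tramadol analgesia only. The 2 PND mice (surgery) received the same anesthesia and analgesia followed by an open tibial fracture with intramedullary nailing, as a model of perioperative neurocognitive disorder (PND). Both groups were thus anesthetized, so the comparison addresses what the fracture adds to anesthesia and analgesia, and no untreated mice are among the samples analysed here. Each library is one mouse, with 15763432 to 18573386 reads counted on genes. All 8 hippocampus markers on the list were detected in every mouse, at 15.6 to 501 CPM (counts scaled to a common, TMM-normalized library total). By the adjusted p-value explained with the results, 4 were higher and 2 lower in PND mice, against 12.9% and 12.7% of all genes. Their median log2 fold change was 0.44, and 0.01 with the offsets for transcript length and GC content described with Srebf2.

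Cholesterol barely crosses the blood-brain barrier, so the brain makes its own, mainly in astrocytes and oligodendrocytes, and uses it for myelin and synaptic membranes. The transcription factor SREBP-2, encoded by Srebf2, drives the synthesis genes when membrane sterol is low. When sterol is plentiful, INSIG proteins hold SREBP-2 and its escort SCAP in the endoplasmic reticulum. The synthesis genes, Insig1 and Srebf2 itself are known targets of SREBP-2 and often move together in other settings.

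Sequence upstream of the start site is shown for 3 of the genes, because SREBP-2 acts there together with NF-Y and Sp1. Hmgcs1 was picked for its sterol element, Srebf2 for its test result and Idi1 for its fold change, after these were seen. RefSeq promoter windows (GRCm38.p6, the same genome as mm10) were at hand for 6 of the 7 genes, in 8 windows, and Sqle was not among them. Each printed run is the 250 bases before the RefSeq start site, 5′ to 3′ on the plus strand, where all 3 genes lie. Capitals mark TCACNCCAC (the core of the sterol regulatory element), CCAAT (the NF-Y box) and GGGCGG (the Sp1 box), searched on both strands, and no 2 of these matches overlap.
Hmgcs1, chr13:119690101-119690350: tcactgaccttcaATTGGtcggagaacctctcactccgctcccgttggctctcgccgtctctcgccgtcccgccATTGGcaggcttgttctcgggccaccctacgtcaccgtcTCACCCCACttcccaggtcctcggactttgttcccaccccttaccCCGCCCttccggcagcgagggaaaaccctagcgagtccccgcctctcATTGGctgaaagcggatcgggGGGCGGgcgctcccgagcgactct
Srebf2, chr15:82147019-82147268: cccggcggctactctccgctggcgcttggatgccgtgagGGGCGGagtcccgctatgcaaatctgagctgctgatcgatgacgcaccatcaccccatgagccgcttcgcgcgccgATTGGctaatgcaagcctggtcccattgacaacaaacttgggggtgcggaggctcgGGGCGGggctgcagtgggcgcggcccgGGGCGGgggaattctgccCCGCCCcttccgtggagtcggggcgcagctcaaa
Idi1, chr13:8885356-8885605: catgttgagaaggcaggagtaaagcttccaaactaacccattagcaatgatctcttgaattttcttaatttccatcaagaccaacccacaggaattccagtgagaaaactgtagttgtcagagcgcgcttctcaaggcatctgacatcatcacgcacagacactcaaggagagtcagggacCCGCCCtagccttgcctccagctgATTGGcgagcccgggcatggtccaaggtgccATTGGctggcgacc
The sterol element core was found in Hmgcs1 alone, as TCACCCCAC beginning 137 bases before the start site, and 1.24% of all 32851 promoter windows of 300 bases hold this motif. The NF-Y box was found in all 6 genes, in 6 of their 8 windows, against 37.4% of all windows. The Sp1 box was also found in all 6 genes, in 7 of the 8 windows, against 35.7%. A window without a match lacks only these letters.

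Before the genes themselves, 2 libraries stood apart, the first control and the second PND library, and some features moved with the groups. Choroid plexus markers, with Ttr as the most abundant, summed to 294 CPM in the first control mouse and 6936 CPM in the second, against 2705 and 4332 CPM in the PND mice. Summed markers of oligodendrocytes overlapped between the groups (6532 and 5647 CPM in control, 6443 and 4201 CPM in PND mice), and 0 of 8 passed edgeR's test, at an unadjusted p-value of 0.05 or with DESeq2 as well. Of 6 markers of oligodendrocyte precursors 3 were lower by the adjusted p-value, and all 6 summed to 392 and 364 CPM in control and 328 and 275 CPM in PND mice. Sums of astrocyte markers were close (4705 and 4638 CPM in control, 5005 and 4760 CPM in PND mice, 3 of 8 higher and 2 lower). Neuron markers summed to 7196 to 7645 CPM, with 2 of 8 higher and 2 lower. The 10 blood cell markers summed to 18.05 and 19.86 CPM in control and 13.23 and 16.83 CPM in PND mice. Of the 7 tested, 1 was lower by the adjusted p-value (Ltf, log2 fold change -1.64) and 0 were higher. With the length and GC offsets given below Ltf did not pass (-1.53, adjusted p = 0.13 by edgeR's test). Endothelial markers summed to 358 CPM in the second PND mouse and to 245 to 265 CPM in the other mice, and 2 of 8 were higher by the adjusted p-value. Of 8 microglia markers 2 were higher (Itgam, whose exon length Gm49368 covers to 68.7% on the same strand, and P2ry12), while the sums overlapped at 289 to 307 CPM. Over all genes 12.9% were higher and 12.7% lower by the adjusted p-value, and 19.8% and 19.3% at an unadjusted 0.05. With offsets for transcript length and GC content, described with Srebf2, 1 astrocyte marker was higher, and 0 precursor, endothelial or microglia markers passed edgeR's adjusted p-value (at an unadjusted 0.05, 1 lower, 1 higher and 3 higher in this order). In that fit 1.36% of all genes were higher and 0.94% lower by the adjusted p-value, and 12.7% and 9.74% at an unadjusted 0.05. The precursor median was then -0.05 in place of -0.35. Transcripts of mitochondrial genes took 2.70% to 3.04% of all counts in control mice and 5.10% to 5.14% in PND mice. The part of these features in the differences of the 7 genes was not tested.

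In the hippocampus of PND mice the values of these 7 genes lay modestly above or below those of the control mice. Only Srebf2 passed the adjusted p-value, and none was a differentially expressed gene (DEG). To count as a DEG, a gene needed a PND to control fold change of 1.5 or above, or of 0.67 or below, together with an adjusted p-value under 0.05 (quasi-likelihood test of edgeR, with the Benjamini-Hochberg adjustment made over all genes tested). Of all genes tested, 8.98% were DEGs. At an unadjusted p-value of 0.05, 4 of the 7 were higher and 2 lower, where 19.8% of all genes were higher and 19.3% lower, and DESeq2 called 1 DEG (Idi1). By the adjusted p-value alone, Srebf2 was lower and no gene of the 7 was higher, where 25.6% of all genes passed, 12.9% higher and 12.7% lower. In 4 of the 7 genes (Hmgcs1, Idi1, Sqle and Cyp51) both PND mice lay above both control mice, as in 33.2% of all genes. In the other 3 (Srebf2, Insig1 and Dhcr7) both PND mice lay below both control mice, as in 32.2% of all genes. The median log2 fold change of the 7 genes was 0.24, against 0.01 over all genes, and 0.15 without the first PND mouse. With the length and GC offsets it turned to -0.03, against 0.04 over all genes. Leaving out either library that stood apart gave 0.27 (first control mouse) or 0.26 (second PND mouse), and leaving out the second control mouse gave 0.16. In bulk tissue, fewer cells of a type and less RNA per cell cannot be told apart.

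The levels of the 7 genes differed more from gene to gene than between the groups. Per kilobase of exon, Srebf2 had the highest level in the control mice, 41.5 ± 1.35 CPM per kilobase (SD, n = 2 for this and the following group values). Hmgcs1 (23.2 ± 2.50) and Insig1 (21.2 ± 0.18) came next and were the only neighbours in the order that did not differ beyond their spread. Cyp51 (10.3 ± 0.58), Sqle (8.59 ± 0.27) and Dhcr7 (7.13 ± 0.74) formed a lower group, and Idi1 was the lowest with 2.70 ± 0.84 CPM per kilobase. The order of the 7 genes was the same in the PND mice, in which Hmgcs1 (28.0 ± 0.13) and Insig1 (20.2 ± 0.32) stood farther apart than their spread.

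**Figure D1:**
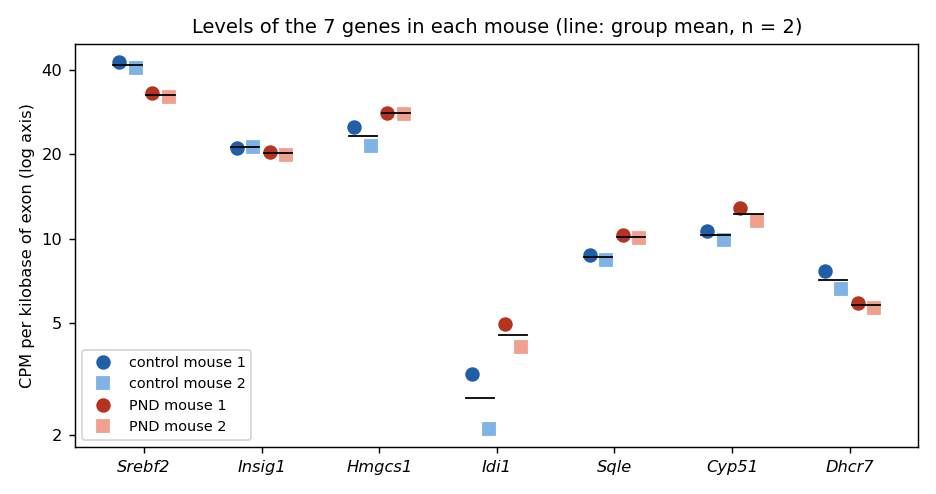
Level of each gene in each mouse, in CPM per kilobase of exon on a log axis, with control mice in blue, PND mice in red and lines for the group means (n = 2). Srebf2, Insig1 and Dhcr7 lie lower in both PND mice, Hmgcs1, Idi1, Sqle and Cyp51 lie higher, and Idi1 has the widest spread between mice of one group.

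Srebf2, the gene of the master regulator (ENSMUSG00000022463, mm10 chromosome 15, 82147266 to 82205376, plus strand), was lower in PND mice. It had 305 and 292 CPM in the control mice and 238 and 230 CPM in the PND mice. The groups were well apart, and each pair of mice lay close together. The log2 fold change was -0.35 (standard error 0.06, adjusted p = 0.0090 in edgeR's test), a fold change of 0.784. It was -0.32 without the first control mouse (adjusted p = 0.028) and also without the second PND mouse (adjusted p = 0.020), both by that test. Once the dependence of the counts on transcript length and GC content was fitted per library and taken out as offsets, it was -0.04 (standard error 0.06, adjusted p = 0.76 by that test), which ended the call.

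Insig1, the sterol-sensing brake on SREBP-2 and one of its most responsive targets (ENSMUSG00000045294, chromosome 5, 28071363 to 28078662), did not pass the test. It had 65.1 and 65.9 CPM in the control mice and 63.0 and 61.6 CPM in the PND mice. The groups did not overlap, but the gap between them was small, with -0.07 on the log2 scale (standard error 0.07, adjusted p = 0.47, edgeR's test). This value was -0.17 with the length and GC offsets (adjusted p = 0.20 by that test) and -0.02 with library totals only.

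Among the enzymes, Hmgcs1 makes HMG-CoA at the entry to the mevalonate pathway (ENSMUSG00000093930, chromosome 13, 119690379 to 119708260). It had 115 and 98.4 CPM in the control mice and 129 and 128 CPM in the PND mice, so the PND mice were nearly equal while the control mice differed. The log2 fold change was 0.27 (standard error 0.08, adjusted p = 0.059 in edgeR's test). It was 0.38 without the first control mouse, where the adjusted p by that test was 0.018, and 0.16 without the second. With the length and GC offsets the direction turned, to -0.03 (adjusted p = 0.86 by edgeR's test). Exons of Gm48342 on the opposite strand overlap 12.1% of its exon length, and the use of strand in the counting is not stated in the sources used here. Of its 75 nt windows, 9.79% also occur in transcripts of Gm48342 or Rasgrp2.

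Idi1 encodes the isomerase that turns isopentenyl diphosphate into dimethylallyl diphosphate (ENSMUSG00000058258, chromosome 13, 8885501 to 8892451), and showed the largest difference of the 7 genes. Its counts were 199 and 135 in control and 277 and 244 in PND mice, or 11.6, 7.39, 17.4 and 14.5 CPM in the same order. Both PND mice lay above both control mice, while the control mice differed from each other by more than the nearest mice of the 2 groups. The fold change was 1.68, above the limit of 1.5, but the log2 value of 0.75 had a standard error of 0.23 with an adjusted p = 0.061 in edgeR's test. Without the first control mouse the log2 fold change was 1.10 (adjusted p = 0.0096), and without the second it was 0.46 (adjusted p = 0.17), both by edgeR's test. It was 0.88 without the second PND mouse (adjusted p = 0.041 by that test). Idi1 was a DEG in 6 of the 13 alternatives, among them DESeq2 (adjusted p = 0.032), but its log2 fold change was 0.30 with the length and GC offsets (adjusted p = 0.48 by edgeR's test). Exons of Gm48574 on the opposite strand overlap 9.22% of its exon length. Of its 75 nt windows, 23.6% also occur in transcripts of 5 other genes, so its level is uncertain. One of these, Gm13502, had 1 to 2 counts in each mouse.

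Sqle encodes squalene epoxidase, the first oxygen-dependent step of sterol synthesis (ENSMUSG00000022351, chromosome 15, 59315077 to 59331192). It had 48.7 and 46.6 CPM in the control mice and 56.9 and 55.6 CPM in the PND mice. This was a small gap with little spread within either group, 0.24 on the log2 scale (standard error 0.07, adjusted p = 0.057, edgeR's test). The size of the difference hardly moved with the length and GC correction, at 0.23 (adjusted p = 0.14 by edgeR's test). No 75 nt window of Sqle occurs in another gene.

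Cyp51 encodes lanosterol 14-alpha-demethylase (ENSMUSG00000001467, chromosome 5, 4081145 to 4104746, minus strand). It had 47.2 and 43.6 CPM in the control mice and 56.9 and 51.0 CPM in the PND mice. The groups were separate with a wider spread than in Sqle, and the log2 fold change was 0.25 (standard error 0.09, adjusted p = 0.092 in edgeR's test). It was 0.15 without the first PND mouse and 0.11 with the length and GC offsets. Its exons share 166 bases, 3.76% of its exon length, with those of Akap9 on the opposite strand. Akap9 itself rose by 0.52 on the log2 scale (standard error 0.07, adjusted p = 0.0052 by edgeR's test).

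Dhcr7, the reductase that makes cholesterol from 7-dehydrocholesterol in the last step of one branch (ENSMUSG00000058454, chromosome 7, 143823145 to 143848410), was the enzyme of the 5 with a negative value. It had 44.5 and 38.5 CPM in the control mice and 34.4 and 32.9 CPM in the PND mice. Both PND mice were below both control mice, with the control mice farther apart than the PND mice. The log2 fold change was -0.30 (standard error 0.10, adjusted p = 0.075 in edgeR's test). It was -0.41 without the second control mouse, -0.20 without the first and -0.14 with the length and GC offsets (adjusted p = 0.47 by edgeR's test).

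**Figure D2:**
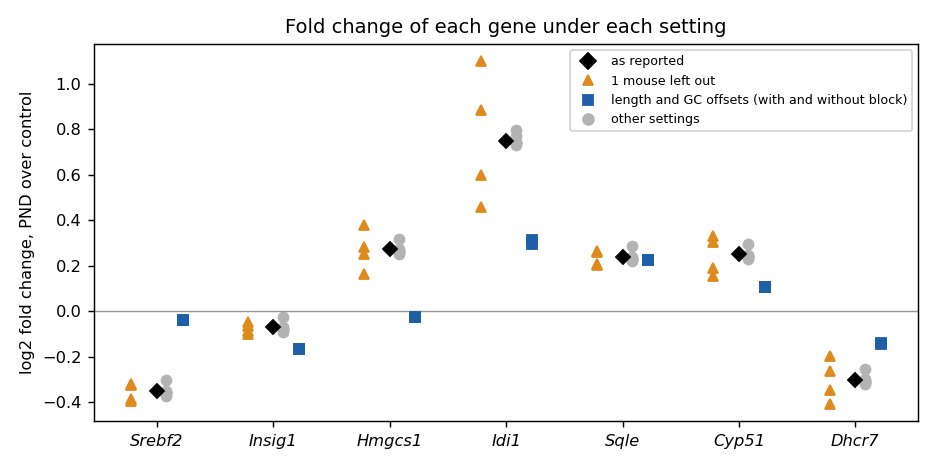
Log2 fold change of each gene, PND over control, as reported (black) and under the 13 alternatives: 1 mouse left out (orange), length and GC offsets with and without a replicate block (blue), and other settings (grey). Idi1 spreads the most, from 0.30 to 1.10, and Srebf2 and Hmgcs1 lie near 0 with the offsets.

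The direction of these differences went with the base composition of the transcripts. Srebf2, the only one of the 7 that passed the adjusted p-value, had a GC content of 57.1%, and Dhcr7, with a negative value that did not pass, 52.3%. Positive values that did not pass stood at Idi1 (41.1%), Hmgcs1 (43.6%), Cyp51 (46.3%) and Sqle (48.7%), and the small negative value of Insig1 at 47.1%. Across the 7 genes Spearman's rho between GC content and log2 fold change was -0.96, and across these and 16 other synthesis enzymes (23 genes) it was -0.89. Over the 17120 tested genes with a GC content it was -0.64, all across genes measured in the same 4 libraries. With the offsets rho was -0.54 over the 7 genes, -0.46 over the 23 and -0.04 over all genes. For each gene the median of all genes in its eighth of GC content gives a reference. Srebf2 stood at -0.35 where its eighth had a median of -0.25, Dhcr7 at -0.30 against -0.08, and Insig1 at -0.07 against 0.18. Idi1 stood at 0.75 against 0.60, Hmgcs1 at 0.27 against 0.31, Cyp51 at 0.25 against 0.18 and Sqle at 0.24 against 0.04. With the length and GC offsets, 0 of the 7 genes passed an adjusted p-value of 0.05 by edgeR's test, where 1.36% of all genes were higher and 0.94% lower. At an unadjusted 0.05 only Sqle (0.23) and Insig1 (-0.17) passed, where 12.7% of all genes were higher and 9.74% lower. The values then ran from -0.17 for Insig1 to 0.30 for Idi1, with a median of -0.03.

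**Figure D3:**
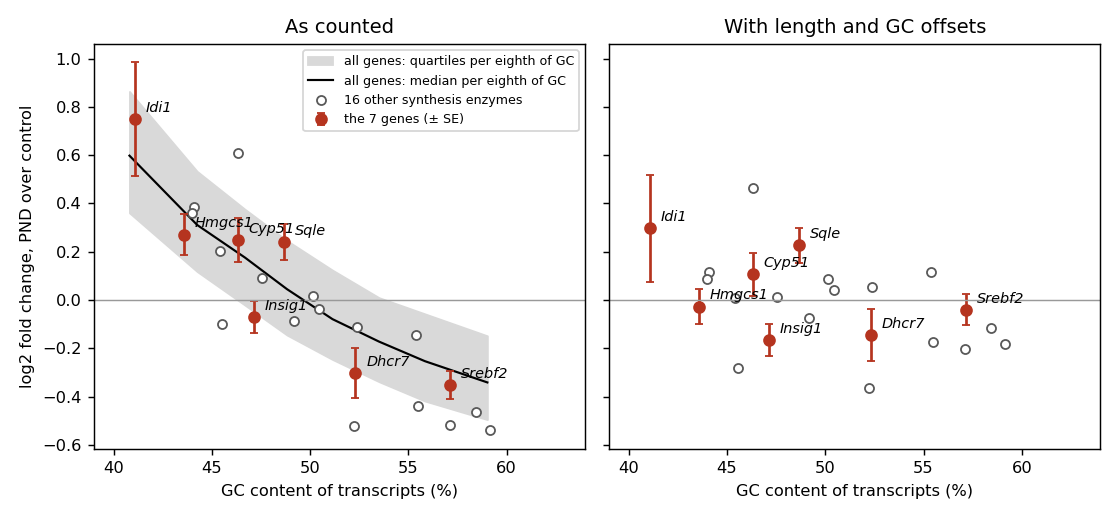
Log2 fold change, PND over control, against the GC content of the transcripts in percent, as counted (left) and with length and GC offsets (right), for the 7 genes (red, ± standard error) and 16 other synthesis enzymes (open circles). On the left the black line and grey band are the median and quartiles of all tested genes per eighth of GC content, which fall from 0.60 to -0.34, and the genes follow this slope. On the right Srebf2 and Hmgcs1 lie near 0.

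Among the other 16 enzymes of the synthesis pathway some genes rose and others fell, and the median log2 fold change was -0.09 (-0.05 without the first control mouse and 0.01 with the length and GC offsets). Hsd17b7, a 3-ketosteroid reductase acting late in the pathway, was the only DEG, with 297 and 228 counts in the control mice against 351 and 393 counts in the PND mice (log2 fold change 0.61, standard error 0.17, adjusted p = 0.047 by edgeR's test). Its call was lost without the second control mouse (0.39), without either PND mouse (0.64 and 0.57), and with the length and GC offsets (0.47). By the adjusted p-value alone 3 of the 16 were higher and 5 were lower, against 12.9% and 12.7% of all genes, and these were named after their values were seen. Besides Hsd17b7, the higher genes were Msmo1 (0.39) and Sc5d (0.36), which act on the sterol nucleus and lost the call without the second control mouse (0.27 and 0.25) or the first PND mouse (0.32 for both). The lower genes included Mvk (-0.46), Pmvk (-0.44) and Mvd (-0.54), the consecutive kinases and decarboxylase of the mevalonate pathway, together with Fdft1 (-0.52), squalene synthase. Mvk lost the call without any one of the 4 mice, Mvd without the first control mouse or either PND mouse, and Pmvk without the first control mouse (-0.40) or the second PND mouse (-0.42). The log2 fold change of Mvk stayed between -0.51 and -0.43 in these fits, and that of Mvd was -0.42 without the first control mouse and -0.54 and -0.55 without either PND mouse. Mvd had the lowest value of the list. With the offsets only Fdft1 kept an adjusted p under 0.05 (-0.36, 0.043 by edgeR's test), and 18.3% of its exon length overlaps Ctsb on the opposite strand. Fdps, farnesyl diphosphate synthase, had only 17 to 30 counts in each mouse, and 26.7% of its exon length overlaps Gm43738 on the same strand, so its level is uncertain.

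In the machinery that processes SREBP, 3 of the 9 listed genes passed the adjusted p-value, all lower in PND mice, where 12.7% of all genes were lower. The median of the list was -0.08, and -0.11 with the length and GC offsets. Without offsets it was -0.02 when the first PND mouse was left out, -0.17 when the second was, and -0.16 when the first control mouse was. In the fit with offsets, 3 of the 9 were lower and 0 higher at an unadjusted 0.05 by edgeR's test. Of all genes 9.74% were lower and 12.7% higher in that fit. Scap, the escort that carries SREBP to the Golgi, was a DEG. It had 120 and 135 CPM in the control mice and 84.0 and 83.2 CPM in the PND mice (log2 fold change -0.61, standard error 0.08, adjusted p = 0.0051 by edgeR's test). The groups were far apart. With the length and GC offsets it was -0.35 (adjusted p = 0.053 by that test), at a GC content of 55.3%. Srebf1, the paralog that favours fatty acid genes (-0.41), and Mbtps1, the site-1 protease (-0.30), also fell. Both lost the call without the second control mouse (-0.25 and -0.28) and with the offsets (-0.04 and -0.18). Srebf1 also lost it without the second PND mouse (-0.40) and Mbtps1 without the first (-0.26). Erlin1 had the highest value of the list (0.33, adjusted p = 0.11 by edgeR's test), which was 0.22 without the second control mouse.

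Among the 11 genes of sterol uptake, 0 were DEGs, 1 was lower and 0 were higher by the adjusted p-value, against 12.7% and 12.9% of all genes. The median was -0.14, but 0.01 without the second control mouse, -0.01 without the second PND mouse, -0.10 without the first and 0.06 with the length and GC offsets. The lower gene was Lrp1, a large receptor for apolipoprotein E particles, which also had the highest level of the list. It had 845 and 968 CPM in the control mice and 590 and 625 CPM in the PND mice (log2 fold change -0.58, standard error 0.09, adjusted p = 0.0070 by edgeR's test). Its fold change lay at the limit of 0.67, and DESeq2 called it a DEG. Its log2 fold change was -0.24 with the offsets (adjusted p = 0.14 by edgeR's test). At an unadjusted p-value of 0.05 the counts of the list were the same, 1 lower and 0 higher, against 19.3% and 19.8% of all genes. Mylip, a ligase that degrades lipoprotein receptors, had the highest value (0.19, adjusted p = 0.26 by edgeR's test), which was 0.11 without the second PND mouse.

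Of the 12 genes of sterol export, storage and turnover, 0 were DEGs, 4 were lower and 1 was higher by the adjusted p-value, against 12.7% and 12.9% of all genes. The median was -0.08, and -0.17 without the second PND mouse, -0.03 without the first, -0.12 without either control mouse and -0.02 with the offsets. DESeq2 also gave 0 DEGs. At an unadjusted p-value of 0.05 the counts by edgeR's test were the same, 4 lower and 1 higher, against 19.3% and 19.8% of all genes. Apoe, the main lipoprotein of the brain and the highest gene of the list, did not pass the test, with 1706 and 1939 CPM in the control mice and 1691 and 1829 CPM in the PND mice. The groups overlapped. Its log2 fold change was -0.05, and it turned to 0.04 without the second control mouse and to 0.33 with the offsets (adjusted p = 0.098 by edgeR's test). The lower genes were Nr1h2 (-0.47), which encodes the sterol receptor LXR-beta, Cyp46a1 (-0.44), the neuronal enzyme of cholesterol turnover, and the transporters Abcg4 (-0.35) and Abcg1 (-0.26). With the offsets all 4 missed the threshold, at -0.07, -0.15, -0.04 and -0.05 in the same order. Abcg1 lost the call without any one of the 4 mice, with library totals only and with DESeq2 (adjusted p = 0.058), which left 3 lower genes. The higher gene was Soat1, which esterifies cholesterol (0.46, adjusted p = 0.013 by edgeR's test), and it also missed the threshold with the offsets. Ch25h, an oxysterol enzyme, had the highest value of the list through 1 library: 16 and 15 counts in the control mice, 2 in the first PND mouse and 59 in the second.

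**Figure D4:**
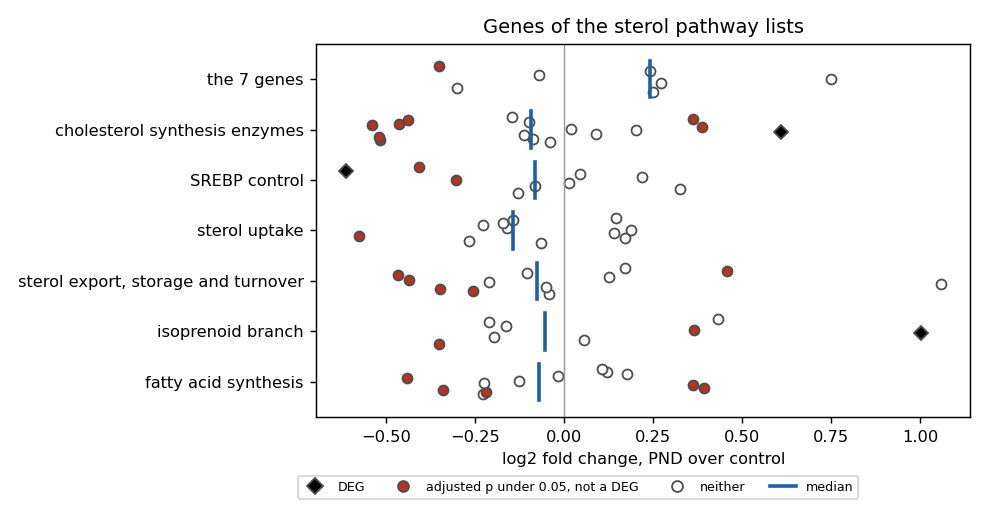
Log2 fold change, PND over control, of each gene of the 7 and of the 6 sterol and lipid lists, with list medians in blue. Black diamonds are DEGs, red circles passed the adjusted p-value only and open circles neither, and the genes of each list lie on both sides of 0.

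Of all 68 genes on these lists, the 3 whose deviations over the 4 libraries lay nearest to the median deviations of the 7 genes were Stard4, Scd2 and Lrp8, with Euclidean distances of 0.022, 0.085 and 0.096 on the log2 CPM scale. Stard4, a sterol carrier, had a log2 fold change of 0.17 (adjusted p = 0.34 by edgeR's test), which was 0.09 without the second control mouse, 0.11 without the first PND mouse and -0.03 with the length and GC offsets. Lrp8, a receptor for apolipoprotein E and reelin, had 0.14 (adjusted p = 0.13), and with the length and GC offsets 0.38 (adjusted p = 0.039), both by edgeR's test. The median deviations were positive for both PND mice (0.136 for the first, 0.045 for the second). Srebf2, Insig1 and Dhcr7, which were lower after surgery, ran the other way. Nearness to the median is therefore not nearness to these 3 genes. With 4 libraries, such closeness describes these mice only.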

How the data were processed

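Hippocampal RNA of 2 control and 2 PND mice was sequenced as 150 nt read pairs. After filtering and alignment to mm10 with HISAT, the authors deposited unnormalized counts per gene. The submitters' processing notes list HISAT2 2.1.0, Bowtie2 2.2.3, TopHat2 and HTSeq 0.6.0. Use of strand is not given in the sources used here. Columns holding the authors' own fold changes and p-values were not used. The main test was that of edgeR 4.0.16 in R 4.3.3 (filterByExpr with a minimum count of 10, TMM, glmQLFit and glmQLFTest, with condition alone in the model). Standard errors were the absolute log2 fold change divided by the square root of F. Alternatives were DESeq2 1.42.0, other scalings and filters, leaving out each mouse, a replicate block, and offsets from mgcv 1.9.3 for transcript length and GC content. Lengths, GC content and overlaps came from GENCODE M21, which holds 29238 of the 29300 identifiers. The procedures were tested on simulated data, with planted changes drawn independently of GC content. Such data cannot show whether the offsets also remove real group differences that go with GC content. The genes and lists were chosen with earlier results of these data known. Besides the 7 genes, the text names every DEG of a list, its highest level, its extremes of fold change and the 3 genes nearest in profile. Some genes that this rule or the counts include are not reported here. Other genes were named after their values were seen. Between replicates, the chi-square per degree of freedom was 13.4 for the control pair and 8.45 for the PND pair, above sampling noise.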

Additional observations from a re-analysis of the deposited data

How the results depend on the processing

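Of 91 comparisons of the 7 genes with an alternative, 75 kept direction and side of the threshold, 12 gained significance, 2 lost it and 2 changed sign. With the offsets for length and GC content 108 genes were higher and 37 lower DEGs, against 1155 and 384, and 411 and 97 with the replicate block added. They left 1 DEG among the 68 list genes, with or without the block, against 3. They left 0 of the 7 genes past the adjusted p-value by edgeR's test, and 1.36% of all genes higher and 0.94% lower without the block, and a median of -0.027 for the 7 (-0.025 with the block). In both fits Hmgcs1 (-0.027 and -0.025), Stard4 (-0.027), Nus1 (-0.002 and -0.003) and Apoe (0.33) changed sign. With the block added to the offsets, Lrp1 (-0.24, adjusted p = 0.019), Scap (-0.35, 0.0022), Acss2 (-0.30, 0.022), Elovl5 (0.27, 0.020), Apoe (0.33, 0.0053) and Hsd17b7 (0.48, 0.042) passed edgeR's test, and none of these did with the offsets alone. Among the 7 genes, 1 DEG (Idi1) appeared with library totals only, without a filter, with DESeq2 and with the replicate block. The numbers of the 7 under an adjusted p of 0.05 were then 4, 3, 2 and 4. The share of all genes under that threshold was not taken in these fits. In the same order, all genes gave 1388, 1377, 846 and 1235 higher DEGs, and 227, 500, 387 and 422 lower DEGs. By the adjusted p-value alone, 2211 genes were higher, 2175 lower, 25 of the 68 and 1 of the 7 passed. Leaving out 1 mouse gave 831 to 1287 higher and 269 to 623 lower DEGs (623 without the first PND mouse), 2 to 4 DEGs among the 68, 0 to 1 DEGs (Idi1, without the first control or the second PND mouse) and 1 to 3 genes under an adjusted p of 0.05 among the 7, and a median of 0.15 to 0.27. Apoe then ran from -0.146 to 0.041 (without the second control mouse) and Ch25h from -2.73 (without the second PND mouse) to 1.98. The cause was not tested.

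The labels number the mice 1 and 2 in each group and give no pairing. Deviations of same-numbered mice correlated at 0.22 over genes, across 2 pairs only. With the replicate block 1235 genes were higher and 422 lower DEGs. Hmgcs1, Idi1 and Dhcr7 then joined Srebf2 under an adjusted p of 0.05 by edgeR's test. The share of all genes under that threshold in this fit was not taken. Depth limits Idi1 the most, with 135 counts in its lowest library.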

Other observations

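Fatty acid synthesis shares SREBP control with the sterol genes. Of its 12 listed genes 0 were DEGs, 2 were higher and 3 lower by the adjusted p-value of edgeR's test, against 12.9% and 12.7% of all genes. The median log2 fold change was -0.07, and -0.17 without the first control mouse, 0.02 without the second, -0.14 without the first PND mouse, -0.01 without the second and 0.04 with the length and GC offsets. DESeq2 also gave 0 DEGs. At an unadjusted p-value of 0.05 edgeR's test gave 2 higher and 5 lower, against 19.8% and 19.3% of all genes. Fasn, the fatty acid synthase, was the lowest at -0.44 (standard error 0.06, adjusted p = 0.0066 by edgeR's test). Its log2 fold change was -0.09 with the length and GC offsets (adjusted p = 0.37 by that test). It had 409 and 442 CPM in the control mice and 316 and 310 CPM in the PND mice. Acss2 (-0.34) and Acly (-0.22), which supply acetyl-CoA, also fell. Acly lost the call without any one of the 4 mice and with library totals alone, and Acss2 without either control mouse or the second PND mouse. The elongases Elovl5 (0.39) and Elovl6 (0.36) rose, and both lost the call without the second control mouse (0.28 and 0.29) or the first PND mouse (0.31 for both). With the length and GC offsets and no replicate block 0 of the 12 passed, where 1.36% of all genes were higher and 0.94% lower. At an unadjusted 0.05 in that fit 2 of the 12 were higher and 2 lower, against 12.7% and 9.74% of all genes. Scd2, the most abundant of the list at 237 CPM per kilobase, had a log2 fold change of 0.11 (adjusted p = 0.36 by the same test), which was 0.02 without the first PND mouse, 0.06 without the second control mouse and 0.18 without the second PND mouse.

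The isoprenoid branch leads away from sterols at farnesyl diphosphate. Of its 8 listed genes Ggps1, which makes geranylgeranyl diphosphate for protein prenylation, was the only DEG, and 2 of the 8 were higher and 1 lower by the adjusted p-value, against 12.9% and 12.7% of all genes. It had 28.9 and 26.2 CPM in the control mice and 51.9 and 58.4 CPM in the PND mice, and the groups were far apart. The log2 fold change was 1.00 (standard error 0.10, adjusted p = 0.0045 by edgeR's test), and 0.68 (adjusted p = 0.030 by that test) with the length and GC offsets. Ggps1 remained a DEG under each of the 13 alternatives run. Exons of Arid4b on the opposite strand overlap 5.44% of its exon length. Dhdds and Nus1 encode the subunits of the dolichol-forming enzyme and differed in sign. Dhdds, the highest gene of the list, fell by 0.35 on the log2 scale (adjusted p = 0.013) and Nus1 rose by 0.36 (adjusted p = 0.015), both by edgeR's test, and neither passed with the offsets, at -0.18 for Dhdds and -0.002 for Nus1. Nus1 also lost the call without the second control mouse.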
